A study of Homo sapiens with 6 samples.

Results

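The GADD45 family consists of 3 genes, GADD45A (ENSG00000116717), GADD45B (ENSG00000099860) and GADD45G (ENSG00000130222). They were taken by name from the deposited table, which lists 3511 genes, and all 3 were found in it. RNA had been sequenced from wild-type RKO cells, an established human colorectal carcinoma line. One group of 3 libraries (control) came from cells in 10% serum and 4.5 g/L glucose, and another group of 3 (fasting) from cells in 1% serum and 1 g/L glucose, with a treatment time of 48 h. Both groups came from the same unmodified line, so the medium is the labelled difference between them. The treatment characteristic alone set the groups: a protocol text common to all libraries gives the low-serum medium for each of them, and the drugs named in the design text are not analysed here. No label says whether libraries of a group were separate cultures, and p-values then measure only the spread between these libraries, which may be technical.

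The GADD45 genes encode small, acidic, mainly nuclear proteins with no known enzymatic activity, which act by binding other proteins. They bind and activate MAP3K4, the kinase at the head of a branch that leads to the stress kinases p38 and JNK, and they bind PCNA, the CDK inhibitor p21 and the mitotic kinase CDK1 with its cyclin B1 partner. GADD45A is induced by DNA damage and by other stresses, GADD45B is a target of NF-kappaB and TGF-beta signalling, and GADD45G is induced by cytokines and is often silenced in tumours. In most tissues the mRNAs are scarce and short-lived until a stress raises them.

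The table holds only genes that the authors had called: its highest adjusted p was 0.04999. The number of genes they tested, 29845, was inferred here from the deposited p-values and adjusted p-values (898 estimates, from 29826 to 29845). The 3511 genes are 11.8% of that number. The table held 4017618 to 5602177 reads per library, and total depth is unknown. Values are normalized counts, meaning reads divided by the authors' size factor of the library. Fasting replicate 3 stood apart from the other fasting libraries by transcript length, as described with the replicate spread, and the rises, levels, shares, spread, ranks, likeness and list counts of the members are given with and without it. Of 10 colorectal epithelial markers 1 was listed, the keratin gene KRT18 (log2 fold change 1.72), and of 10 markers of blood, stromal and endothelial cells 0 were listed, so the labelled cell type could not be checked further.

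Promoters, the regions where transcription starts, are shown before the values. RefSeq promoter sequences (build GRCh38.p14) were matched for 2 of the 3 genes, GADD45B and GADD45G. Each line gives the 250 bases before the annotated start, 5′ to 3′ on the plus strand, with matches to any of 10 searched motifs in capitals.
GADD45B, chr19:2475877-2476126: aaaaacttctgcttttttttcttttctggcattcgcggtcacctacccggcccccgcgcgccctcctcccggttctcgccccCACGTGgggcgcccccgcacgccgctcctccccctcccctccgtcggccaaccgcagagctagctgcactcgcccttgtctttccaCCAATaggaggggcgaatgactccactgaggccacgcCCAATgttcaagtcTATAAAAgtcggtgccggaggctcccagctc
GADD45G, chr9:89604762-89605011: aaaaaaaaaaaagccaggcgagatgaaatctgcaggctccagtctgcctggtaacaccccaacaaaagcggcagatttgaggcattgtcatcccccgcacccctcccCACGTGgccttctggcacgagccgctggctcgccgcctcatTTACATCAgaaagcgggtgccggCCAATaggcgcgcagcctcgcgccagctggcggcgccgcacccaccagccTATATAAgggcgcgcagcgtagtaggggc

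Both stretches held 3 of the motifs in the same order towards the start. The first was an E-box, spelled CACGTG, which began 168 bases before the start in GADD45B and 143 in GADD45G. The second was the box named for its letters CCAAT, which began 82 and 45 bases before the start in GADD45B and 79 in GADD45G. The third was a TATA box, searched as TATANAA, which began 31 bases before the start in GADD45B and 29 in GADD45G. Over 35116 promoter stretches of this length, 6.34% held the E-box, 32% the second box and 8.41% the TATA box on either strand, and 35 (0.0997%) held all 3. GADD45B and GADD45G are among the 35 by construction, since their stretches set the combination. Of the other genes, 5 were listed: HERPUD1 (log2 fold change 3.34), which encodes a membrane protein of the endoplasmic reticulum, SSR3 (0.80) and ADPRHL1 (1.09) were higher in fasting medium by limma, DIAPH1 (-0.65) was lower, and HOXA9 (-0.59) did not pass (adjusted p = 0.0711). Nothing is read from these few genes.

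GADD45G also held TTACATCA, the reverse strand of the C/EBP-ATF element TGATGNAA, 102 bases before its start, and 3.14% of all stretches held this element. The other motifs searched on both strands were the AP-1 site TGACTCA (4.2% of all stretches), the CRE TGACGTCA (1.65%), the GC box GGGCGG (42.6%), the kappaB site (0.179%), the heat shock unit GAANNTTC (5.78%) and the octamer ATGCAAAT (1.63%). None of these letters was found in either window. No 2 motifs overlapped in the printed stretches. The motifs were chosen after the sequences had been seen, and a match describes letters, not binding.

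All 3 GADD45 genes rose in fasting medium, GADD45A about 4-fold and GADD45B and GADD45G about 21-fold, and no fasting library overlapped a control library for any of them. Folds compare means of log2(normalized count + 1), fasting against control, with the SE on the log2 scale from limma and adjusted p by Benjamini-Hochberg over the 29845 genes. Among listed genes 94.3% passed this test, 49.7% upward and 44.6% downward. Over all 29845 genes the authors tested this is 11.1%, 5.85% upward, with unlisted genes counted as not passing. Unlisted genes have no values here and were not themselves put through the test. Of the listed genes 7.52% passed and rose at least 4-fold, and 0.826% at least 16-fold. Non-overlapping groups were the rule in this table, at 100% of listed genes. In bulk RNA, more mRNA per cell and a larger share of cells with high levels cannot be told apart.

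GADD45A, which acts in the G2/M checkpoint, lay at 853, 1015 and 794 normalized counts in the control libraries (replicates 1 to 3 here and below) and at 3125, 3126 and 4216 in the fasting libraries. It was thus well expressed in control medium, and the lowest fasting library was 3.08 times the highest control library. The means were 887 ± 114 and 3489 ± 630 (SD, n = 3 each), and the log2 fold change was 1.97 ± 0.15 (SE), or 3.91-fold (limma, adjusted p = 1.37e-04). Without fasting replicate 3 it was 1.82 ± 0.08.

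GADD45B, a partner of MAP3K4 that also restrains the JNK kinase MAP2K7, lay at 98.6, 102 and 111 normalized counts in the control libraries and at 1857, 1952 and 2988 in the fasting libraries. The controls differed little and fasting replicate 3 was the highest, while the lowest fasting library stood at 16.7 times the highest control. From 104 ± 6 to 2266 ± 627 (SD, n = 3 each), the log2 fold change was 4.40 ± 0.18 (SE), or 21.1-fold (limma, adjusted p = 1.54e-05). It was 4.18 ± 0.08 without fasting replicate 3.

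GADD45G was the scarcest member, at 4.93, 12.8 and 15.3 normalized counts in the control libraries and 199, 161 and 375 in the fasting libraries. Control values rested on 5, 18 and 21 reads, and the exact Poisson 95% interval for control replicate 1 was 1.60 to 11.5, a counting error alone. Fasting values rested on 157, 154 and 273 reads, and the lowest fasting library was 10.6 times the highest control library. The means were 10.99 ± 5.39 and 245 ± 114 (SD, n = 3 each), and the log2 fold change was 4.39 ± 0.44 (SE), or 20.9-fold (limma, adjusted p = 5.10e-04). The fold was 15.4 without control replicate 1 and 16.4 without fasting replicate 3, and it was 13.4 once a trend with transcript length had been removed from each library, all past the threshold.

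**Figure D1:**
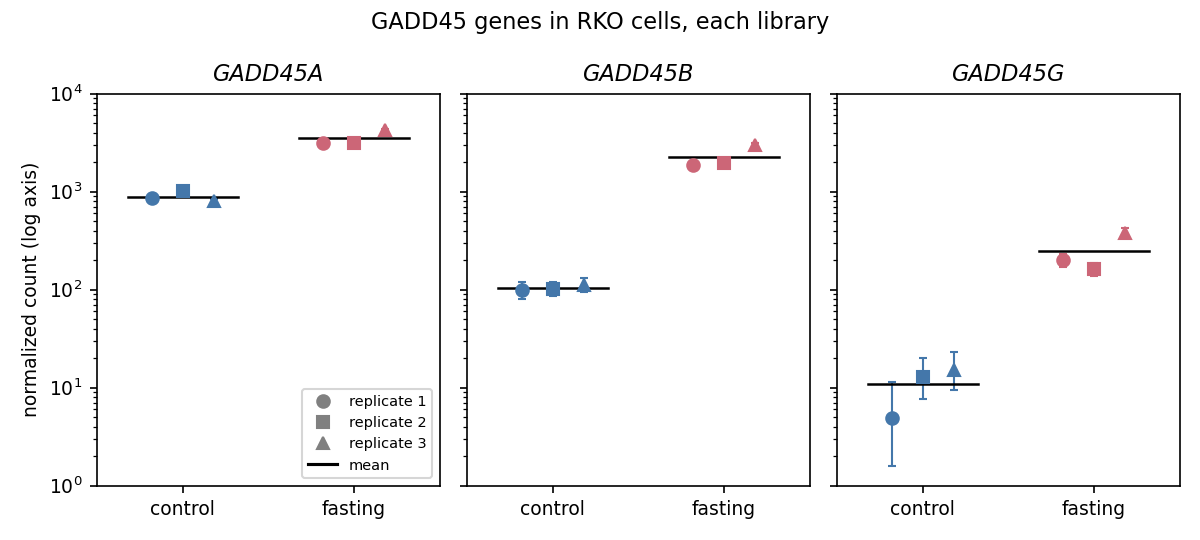
Normalized counts (log axis) of each GADD45 gene in the 3 control and 3 fasting libraries, with exact Poisson 95% intervals as bars and group means as lines. Every fasting library lies above every control library for all 3 genes, and fasting replicate 3 is the highest library for each.

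The authors' deposited table gave log2 fold changes of 1.98 for GADD45A, 4.44 for GADD45B and 4.48 for GADD45G, as ratios of group means. By the authors' deposited table, adjusted p was 9.06e-12, 8.38e-15 and 4.05e-05, in that order. Among the 2897 listed genes whose mean reached 100 in a group, the rise of GADD45B ranked 12, that of GADD45G 13 and that of GADD45A 106. Without fasting replicate 3 the ranks were 12, 16 and 123. GADD45G reached the mean of 100 only in fasting medium (10.99 in control, 245 in fasting). Over all 3511 listed genes, with all libraries and no such filter, the ranks were 19 for GADD45B, 20 for GADD45G and 277 for GADD45A. All these ranks describe position among genes already called.

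No stretch of 31 bases in the longest coding transcript of a member (GENCODE release 29) occurred in a transcript of another gene on either strand. In that annotation no other gene model overlapped any of the 3 genes. Their nearest protein-coding neighbours in RefSeq order are SERBP1 and GNG12 for GADD45A, LMNB2 and GNG7 for GADD45B, and SEMA4D and DIRAS2 for GADD45G. Of these 6 neighbours LMNB2, a nuclear lamin gene, was listed, and it fell by 1.09 ± 0.10 on the log2 scale (limma, adjusted p = 2.62e-04).

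The make-up of GADD45 mRNA differed between the control and fasting libraries. Its shares restate the same counts as the folds and add no separate support. Levels were compared between genes per kilobase of the longest coding transcript, which is 1496 bases for GADD45A, 1373 for GADD45B and 1065 for GADD45G. Division by length assumes that reads scale with it. In control medium GADD45A lay at 593 ± 76 normalized counts per kilobase, GADD45B at 75.8 ± 4.7 and GADD45G at 10.3 ± 5.1 (SD, n = 3 each), with no overlap between neighbours in this order. In fasting medium the order was 2332 ± 421, 1650 ± 457 and 230 ± 107. The fasting ranges of GADD45A and GADD45B overlapped, while within each fasting library GADD45A was the higher. Without fasting replicate 3 the fasting means were 2089, 1387 and 169.

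GADD45A made up 88.2%, 88.7% and 84.8% of the summed level per kilobase in the control libraries and 57.6%, 57.1% and 52.7% in the fasting libraries. The share of GADD45B went from 11.3 ± 1.6% to 38.9 ± 1.7% and that of GADD45G from 1.53 ± 0.79% to 5.29 ± 1.24% (SD, n = 3 each). The level of GADD45A was 7.86 ± 1.28 times that of GADD45B in control libraries and 1.44 ± 0.13 times in fasting libraries. With the median length of coding transcripts in place of the longest, the fasting ratio was 0.987 ± 0.088, so the order of these genes in fasting medium depends on the transcript assumed. Any fixed length cancels from the fasting-to-control change of this ratio. The summed level per kilobase went from 679 ± 75 to 4213 ± 982, or 6.20 times. Without fasting replicate 3 the fasting shares averaged 57.3% for GADD45A, 38.05% for GADD45B and 4.64% for GADD45G, the ratio of GADD45A to GADD45B was 1.51 and the summed level was 3646. Groups did not overlap in these shares, and each gave p = 0.1 in a two-sided exact permutation test, the smallest that 3 against 3 libraries allows.

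**Figure D2:**
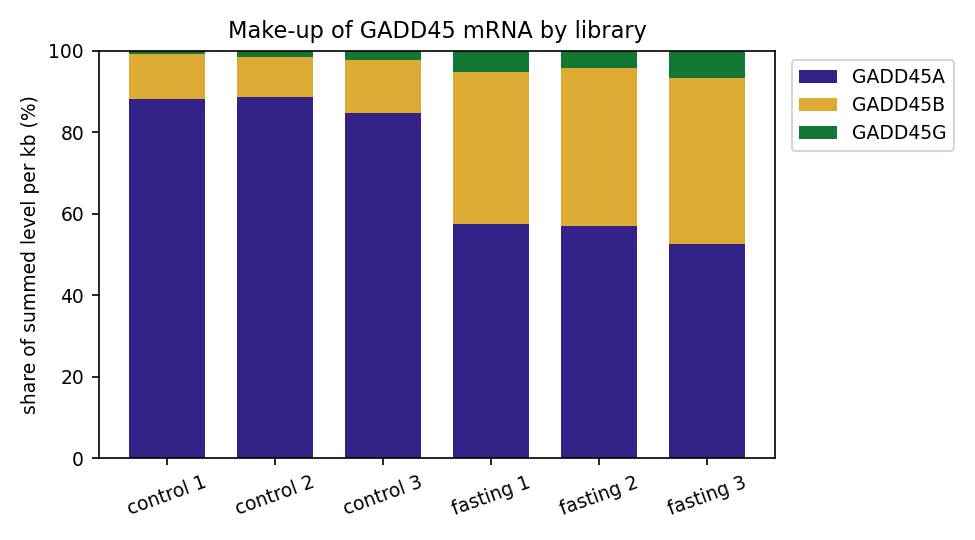
Share (%) of each GADD45 gene in the summed normalized count per kilobase, 1 bar per library. GADD45A fills 84.8% to 88.7% of the control bars and 52.7% to 57.6% of the fasting bars.

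Differences between members were also taken within each library, where the size factor cancels. The rise of GADD45B exceeded that of GADD45A by 2.43 ± 0.16 log2 units (SE), and that of GADD45G exceeded it by 2.42 ± 0.51, with p = 0.1 each in an exact permutation test, or 0.15 adjusted over 3 pairs. This exact test cannot give less than 0.1 with 3 against 3 libraries. The rises of GADD45B and GADD45G differed by 0.01 ± 0.45 (exact permutation p = 1), which does not show that they were equal.

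Replicate spread differed among the genes and between the media. In control libraries the coefficient of variation was 12.9% for GADD45A, 6.21% for GADD45B and 49.1% for GADD45G, where counting alone would give 3.02%, 8.81% and 27.1%. In fasting libraries it was 18.05%, 27.7% and 46.6%, against 1.88%, 2.33% and 7.08% from counting alone. Single libraries decided several of these values. Without fasting replicate 3 the fasting values were 0.0044%, 3.52% and 15.0%, against 1.92%, 2.47% and 8.02% from counting alone, over 2 libraries. Without control replicate 1 the control values were 17.3%, 5.89% and 12.5%, against 2.82%, 8.20% and 22.6%. GADD45B in control medium thus stayed below its counting error in both computations, and the spread of GADD45A in fasting medium and of GADD45G in control medium fell below theirs without the named library.

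Replicate 3 was the highest fasting library for all 3 genes, at 1.35, 1.57 and 2.08 times the mean of the other fasting libraries for GADD45A, GADD45B and GADD45G. On the log2(normalized count + 1) scale its distance from them was 0.43, 0.65 and 1.06. Listed genes with transcripts of 1000 to 1500 bases, the range in which all 3 members fall, had a median distance of 0.56 in that library, with quartiles at 0.42 and 0.66 (146 genes whose mean reached 100 in a group). For transcripts of 6000 bases or more the median was -0.53 (511 genes). GADD45A and GADD45B lay between the quartiles for their length, and GADD45G above it. For control replicate 1 against the other controls, the median was -0.0047 in the short range. There GADD45A was at -0.07 and GADD45B at -0.11, while GADD45G, on 5 reads, was at -1.34.

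**Figure D3:**
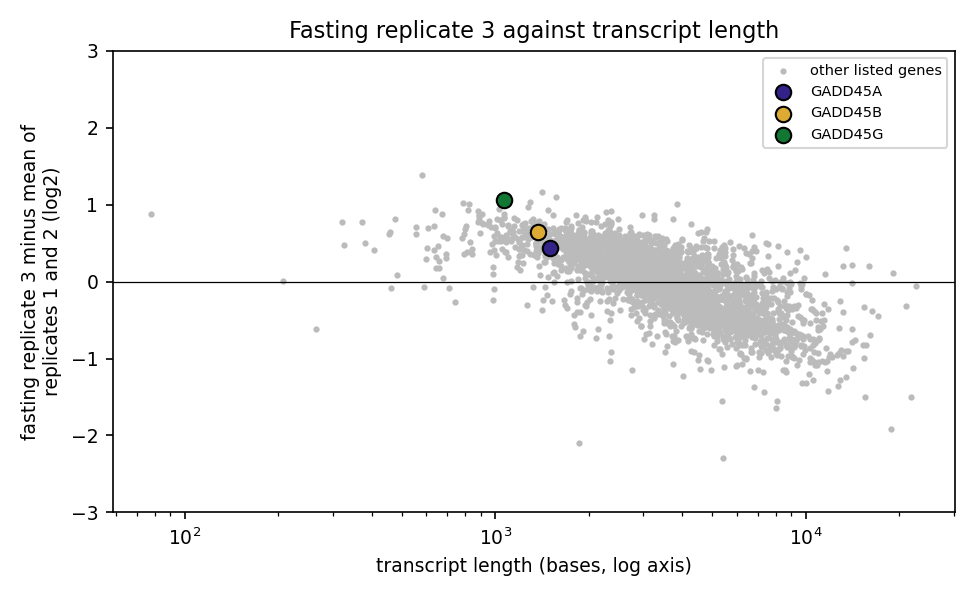
Distance of fasting replicate 3 from the mean of fasting replicates 1 and 2 (log2) against transcript length (bases, log axis) for listed genes whose mean reached 100 normalized counts in a group. The median is 0.56 for transcripts of 1000 to 1500 bases and -0.53 for those of 6000 or more, with GADD45A at 0.43, GADD45B at 0.65 and GADD45G at 1.06.

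With the length trend removed from every library, the log2 fold changes were 1.58 ± 0.09 for GADD45A, 3.96 ± 0.10 for GADD45B and 3.75 ± 0.39 for GADD45G (SE, limma). Without fasting replicate 3 they were 1.82, 4.18 and 4.03, so removing the trend lowered all 3 further than leaving out that library. The trend with length between the groups was thus not confined to fasting replicate 3, and its source was not tested. Scaled to the total of the listed genes the log2 fold changes were 1.49, 3.92 and 3.94. All 3 rises passed the threshold in each of 19 alternative settings. In these settings 1981 to 3509 of the 3511 listed genes passed, so a kept call was common in this table.

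**Figure D4:**
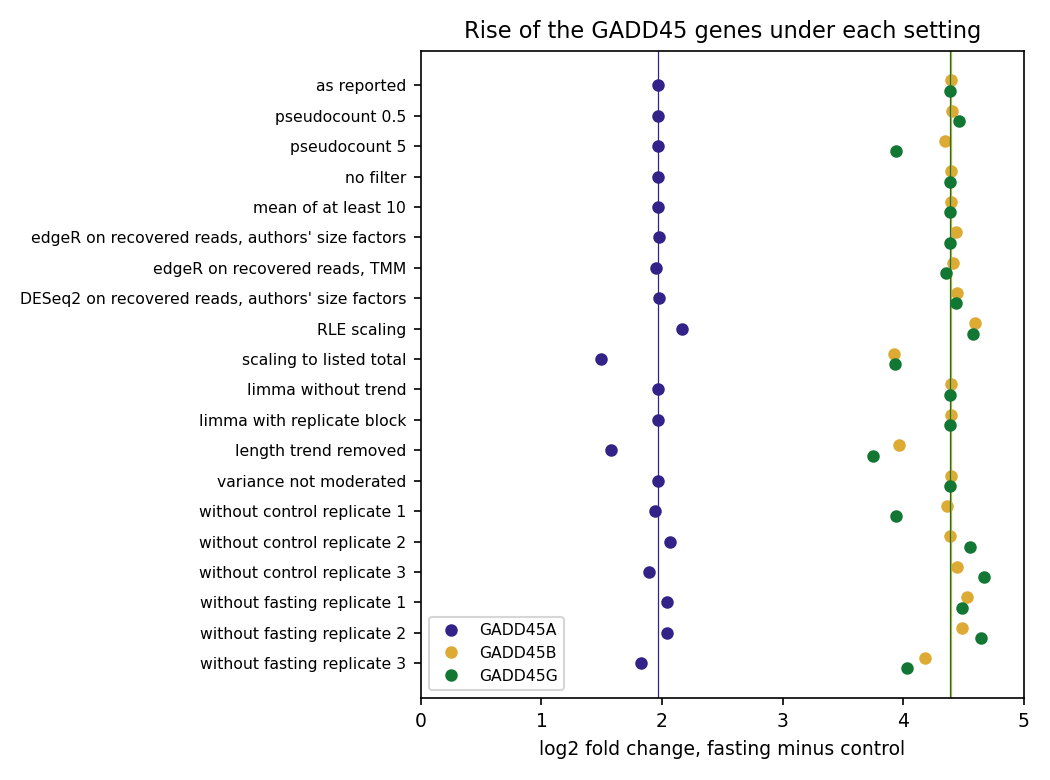
Log2 fold change, fasting minus control, of each GADD45 gene as reported (vertical lines) and under each alternative setting (points). GADD45A ranges from 1.49 to 2.17, GADD45B from 3.92 to 4.60 and GADD45G from 3.75 to 4.67.

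The wider growth arrest and DNA damage inducible group, named for genes found together in one screen, also holds DDIT3 (GADD153), a stress transcription factor, and PPP1R15A (GADD34), which directs dephosphorylation of eIF2alpha. Of the 4 further genes in this list both of these were listed and rose, while the binding protein gene GADD45GIP1 and PPP1R15B were not listed. DDIT3 went from 42.3 ± 0.8 to 678 ± 256 normalized counts, 15.0-fold, and PPP1R15A from 1776 ± 37 to 19864 ± 2948, 11.1-fold. Both rises lay between that of GADD45A and those of the other members. The median log2 fold change over all 3511 genes tested was 0.53, with 1745 called higher and 1567 lower, and list counts below are read against these.

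Genes of a G2/M list, which holds binding partners of GADD45 proteins and other cell-cycle genes, mostly fell. Of 11 such genes 10 were listed, 9 fell and 1 rose (median log2 fold change -1.21). CDK1, the mitotic kinase, went from 1053 ± 56 to 453 ± 75 normalized counts and CCNB1, its cyclin B1 partner, from 1798 ± 10 to 614 ± 97. The replication clamp gene PCNA (log2 fold change -1.18 ± 0.15), the mitotic kinase genes PLK1 (-1.89 ± 0.13) and AURKA (-1.66 ± 0.10), the inhibitory kinase gene WEE1 (-0.78 ± 0.13) and the phosphatase gene CDC25A (-1.48 ± 0.12) fell too. CDKN1A, which encodes p21, was the riser, from 2645 ± 145 to 4655 ± 651, or 1.75-fold. CCNB2 (-0.55) lost its call on leaving out any library other than fasting replicate 3 (adjusted p = 0.0641 to 0.1145), and CCNB2 and CDC25B (-0.57) lost it with RLE scaling, the median-of-ratios method computed on the listed genes.

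In the p38 and JNK cascade 7 of 23 genes were listed, 3 higher and 4 lower (median -0.59). MAP3K4, the direct kinase partner, lay at 480 ± 21 in control and 263 ± 38 in fasting libraries, a fall of 0.87 ± 0.13 on the log2 scale. MAPK9, which encodes JNK2 (-0.69 ± 0.08), and TAB1, an activator of p38 (-0.59 ± 0.10), fell as well. TAB1 lost its call with RLE scaling (-0.39). DUSP1, a phosphatase that switches off p38 and JNK, rose 7.14-fold, from 187 ± 25 to 1338 ± 182. The p38 substrate kinase MAPKAPK2 rose by 0.60, a call lost when scaled to the listed total (0.13). MAP3K5 (-0.87) lost its call when fasting replicate 2 or any of the controls was left out (adjusted p = 0.0712 to 0.1379), with RLE scaling (0.1253) and in limma without a trend (0.0570). DUSP10 (1.18) lost it without control replicate 1 or 2 or fasting replicate 1 or 2 (adjusted p = 0.0522 to 0.0640) and with the total scaling (0.2785). With the total scaling the split of the cascade was 1 higher and 4 lower, and with RLE scaling 3 higher and 2 lower. MAPK14, MAPK8 and MAP2K7 were not listed.

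Of 25 transcription factors known to act on GADD45 genes, 11 were listed, 9 rose and 2 fell (median 1.29). ATF3, a stress factor, rose 17.5-fold from 42.9 ± 3.5 to 768 ± 72, and ATF4, the main factor of the integrated stress response, rose 4.37-fold from 2424 ± 111 to 10751 ± 2315. CEBPB (4.37-fold), KLF4 (4.16-fold), EGR1 (2.69-fold), JUND (2.45-fold) and RELB (2.09-fold), a subunit of NF-kappaB, rose as well. MYC, a repressor of GADD45A, rose by 0.59 ± 0.09 log2 units. ZNF350, a BRCA1-associated repressor of GADD45A, rose by 0.82 ± 0.12. The calls of MYC and ZNF350 were lost when scaled to the listed total (0.11 and 0.34), which left 7 higher and 2 lower. With the variance not moderated, JUND, RELB and, from the other lists, WEE1, CCNB2, MAP3K5, MAPKAPK2, DUSP10, TDG and JUNB did not pass (adjusted p = 0.0643 for TDG to 0.2625 for MAP3K5). The repair gene BRCA1 (-1.26 ± 0.13) and TP73 (-1.76 ± 0.13) fell.

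**Figure D5:**
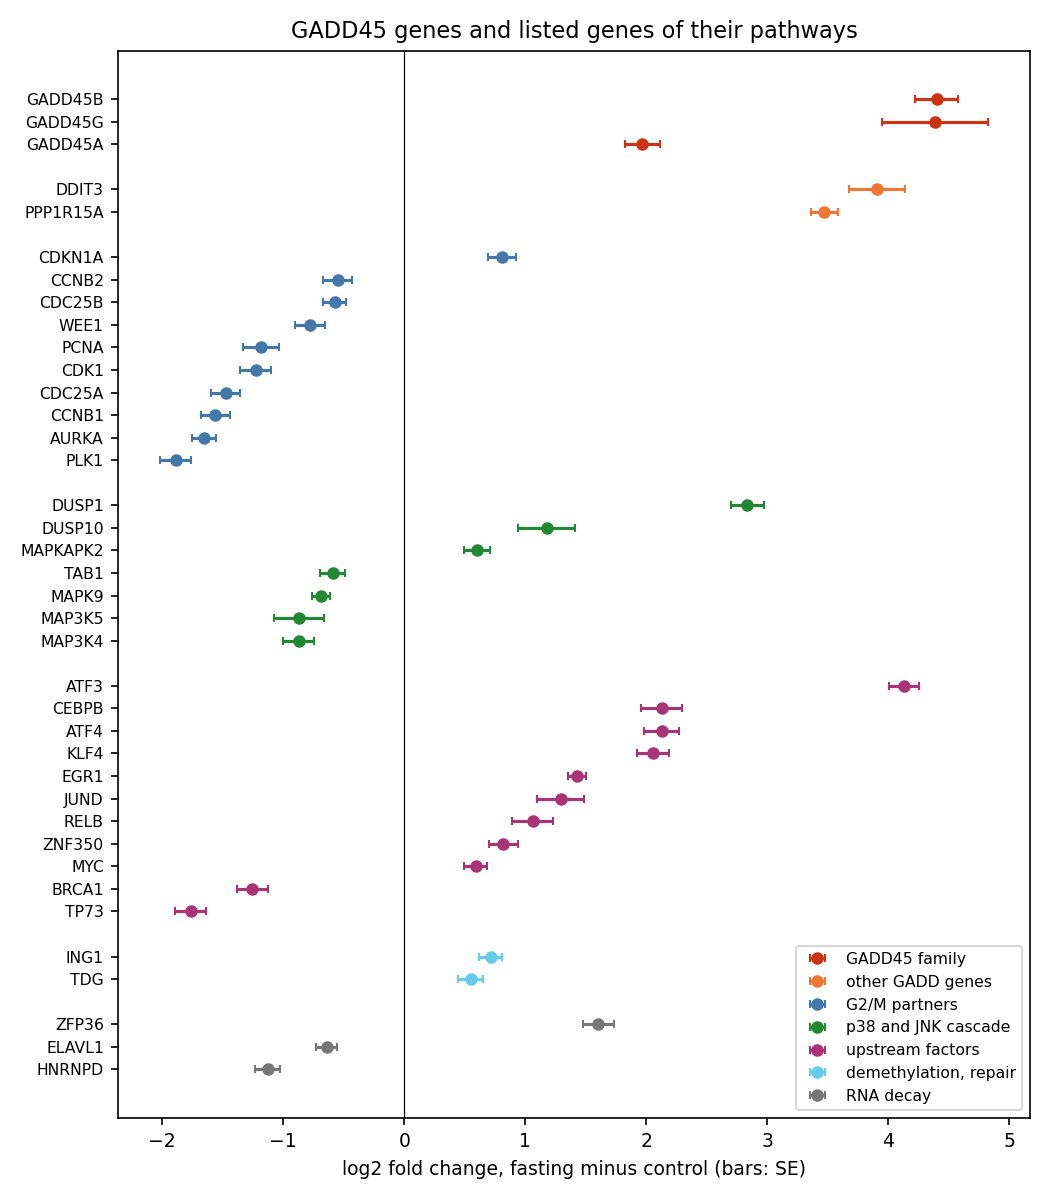
Log2 fold change, fasting minus control, with SE for the GADD45 genes and the listed genes of 6 related lists. GADD45B and GADD45G lie at 4.40 and 4.39, DDIT3, PPP1R15A and ATF3 between 3.47 and 4.13, and 9 of 10 listed genes of the G2/M list below 0.

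Of 12 genes of DNA demethylation and repair that bind or work with GADD45 proteins 2 were listed, the histone-mark reader ING1 (0.72) and the glycosylase gene TDG (0.55). Both calls were lost when scaled to the listed total (0.24 and 0.07), and TDG also lost it when control replicate 1 or 3 was left out (adjusted p = 0.0573 and 0.0611). The TET genes were not listed.

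Among 16 factors of RNA decay and stability 3 were listed. HNRNPD, which encodes AUF1, a protein that destabilises GADD45A mRNA, went from 7261 ± 529 to 3323 ± 328, a fall of 1.13 ± 0.10 on the log2 scale. The stabilising factor ELAVL1 fell by 0.64 ± 0.09, a call lost with the length trend removed (-0.23), and the decay factor ZFP36 rose 3.04-fold. None of the UPF and SMG genes of nonsense-mediated decay, a pathway that degrades GADD45 mRNAs, was listed. Leaving out fasting replicate 3 changed none of the list counts given here. That setting called 3509 genes, nearly all of those listed, against 3312 with all libraries. The list genes could thus hardly lose a call in it, and nothing is read from the unchanged counts. With any other library left out, 8 rather than 9 genes of the G2/M list were called lower.

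Immediate early and heat shock genes, used as signs of handling stress and RNA quality, were also in the lists. Of 10, 8 were listed and 8 rose (median 3.50). Their summed normalized counts ran from 9013 to 9816 in control and from 64859 to 79081.5 in fasting libraries. FOS rose 25.5-fold, HSPA1B 15.1-fold and ATF3 17.5-fold. JUNB, an AP-1 subunit gene (log2 fold change 0.87), did not pass once control replicate 1 was left out (adjusted p = 0.0542), when scaled to the listed total (0.1886) and with the variance not moderated (0.1396), and 7 of the 8 passed in each of these. Their part in the rise of the GADD45 genes was not tested.

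Genes whose profiles were most like those of the members were ranked over the 6 libraries among 2896 others whose mean reached 100 in a group, by the distance between their log2 deviations from the control mean. For GADD45B these were MMP1 (distance 0.34), a matrix metalloproteinase, HSPA1A (0.49), FOS (0.57), ATF3 (0.75) and EID3 (0.77), and GADD45G ranked 10 (1.09). HSPA1A and HSPA1B are near-identical copies, so the split of reads between them is unsure. For GADD45G the nearest gene was GADD45B (1.09), followed by MMP1 (1.24), HSPA1A (1.30), CHAC1 (1.32) and FOS (1.36). GADD45A had other neighbours: AVEN (0.20), TM4SF19 (0.22), TRIM16L (0.23), the autophagy gene MAP1LC3B (0.24) and the ubiquitin-conjugating enzyme gene UBE2B (0.24), all with log2 fold changes between 1.87 and 2.08. GADD45B and GADD45G lay at distances of 4.23 and 4.37 from it. Without fasting replicate 3, 4 of the 5 nearest genes were shared for GADD45B, 3 of 5 for GADD45G and 0 of 5 for GADD45A. The gene nearest to GADD45G was then HSPA1B, followed by GADD45B. The neighbours named for GADD45A did not hold without that library. Rankings without any other library are not given. This distance follows mainly the size of the rise. The genes named for GADD45B and GADD45G had log2 fold changes of 4.13 to 4.94, and 29 listed genes passed and rose at least 16-fold. GADD45G and ATF3 reached the mean of 100 only in fasting medium (10.99 and 42.9 in control). Nearness here therefore does not show shared regulation.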

How the data were processed

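RNA-seq of 6 RKO libraries was analysed from 1 deposited table. Tools listed in the submitters' processing notes, without their roles, are DESeq 1.10.1, HTSeq 0.6.1 and UMI-tools 1.0.0. For aligner, build, annotation and strand the entry is: not given in the sources used here. The sample columns hold a signal that the authors deposited without a unit: every value was a whole multiple of 1 number per library within 0.01 read (100% of values), so it equals reads over a size factor. The deposited log2 fold change and p-value columns are the authors' own.

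limma 3.58.1 (R 4.3.3; trend, empirical Bayes) was run on log2(normalized count + 1), two-sided, keeping genes whose mean reached 1 in a group, with Benjamini-Hochberg adjustment over 29845 genes (unlisted genes at p = 1) and a threshold of 0.05. The moderation was estimated on listed genes, which had been selected on outcome. Exact permutation tests compared members within libraries. Alternatives covered pseudocounts, filters, scalings, edgeR 4.0.16 and DESeq2 1.42.0 on recovered reads, a replicate block, transcript length and each library left out. Functions were tested on simulated data. Identifiers matched a table of gene names for 3467 genes, and 98.7% had a GENCODE transcript length.

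Members and gene lists were chosen with earlier results of these data known. Named are the GADD45 genes, listed members of 6 related lists, the 3 stress genes with the smallest adjusted p, and the 5 genes nearest each member. KRT18, JUNB, the promoter-sharing genes and the neighbours were named after their values were seen. An item of the planned lists is not reported here.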

Additional observations from a re-analysis of the deposited data

How the results depend on the processing

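The rises of GADD45A, GADD45B and GADD45G kept direction and call in 19 of 19 settings each, with adjusted p up to 0.0126, 0.00456 and 0.0311, the highest with the variance not moderated, a setting chosen after seeing the data. Leaving out 1 library gave 1.82 to 2.07, 4.18 to 4.53 and 3.94 to 4.67. Of the 3511 listed genes the number called was 3312, 2624 to 3509 without 1 library, and 1981 with the variance not moderated. Keeping a call was thus common among listed genes. Scaled to the listed total, which moves every log2 fold change by a median of -0.475 (RLE 0.198), the number called was 862 higher and 1708 lower against 1745 and 1567. Deviations of same-numbered libraries correlated at 0.0315, 0.0265 and 0.0772, so numbers were not taken to pair libraries. With a replicate block 3293 genes passed, among them the members (adjusted p = 0.00143, 1.26e-04 and 9.45e-04). The rise of GADD45B less that of GADD45G changed sign, to -0.0546 with pseudocount 0.5, and ranged from -0.22 to 0.42 without 1 library (-0.16 without control replicate 2, -0.22 without control replicate 3, -0.15 without fasting replicate 2). The cause was not tested. GADD45B and GADD45G less GADD45A stayed positive, at 2.32 to 2.56 and 1.98 to 2.78, and the change in the share of GADD45A stayed between -35.2 and -29.9 percentage points. Of 950 recomputed values of 50 other named or list genes, 38 lost their call and 0 changed direction.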
